A study of Saccharomyces cerevisiae with 14 samples.

Results

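Ribosome biogenesis factors are the proteins that cut, fold and modify ribosomal RNA in the nucleolus and load ribosomal proteins onto it. The genes described here are 59 yeast genes of nucleolar rRNA processing and ribosome assembly, taken from a list by symbol in the array annotation. All 59 had a value on every one of the 14 arrays and belonged to the 5535 genes tested. The arrays compared a budding yeast strain labelled null and strains with TAF1 constructs. TAF1 is a large subunit of the general transcription factor TFIID. The study's title concerns the dependence of genes on functional domains of that protein.

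Of the 7 groups, each with 2 arrays, 5 carried altered TAF1, namely the strain labelled null (yjdi381) and the construct strains DT1 (yjdi355), TF1 (yjdi357), HT4 (yjdi359) and PB1 (yjdi361). The control was FHT-WT1 (yjdi353), whose code ends in WT1. Each of these strains was hybridised against the reference strain yjdi363, and the homotypic pair was that reference against itself. Every culture, the reference included, grew in 3% raffinose without leucine until the OD600 was 0.7. The TAF1 constructs were then induced at 25 °C by 2% galactose over 30 min, and the cells spent a further 45 min at 37 °C. All groups therefore share the change of carbon source and the heat treatment. Neither the TAF1 allele on the chromosome nor the meaning of the codes DT1, TF1, HT4 and PB1 is stated in the labels, so the strains are called by their codes. Array 1 of each strain had the strain in Cy5 and array 2 had it in Cy3. Whether a group's 2 arrays stem from separate cultures is not in the labels. The p-values rest on a spread for each gene that is pooled over all 7 groups, after a term for dye orientation. This spread may be technical, so the p-values may not measure how far separate cultures differ.

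A ribosome begins as a long transcript of RNA polymerase I. Small nucleolar RNPs guide its chemical modification, the small subunit processome cleaves its leading part, and helicases, GTPases and scaffold proteins then build the large subunit around the remainder. In budding yeast the genes for these factors are transcribed by RNA polymerase II, respond together to nutrients and stress, and fall briefly after a shift to higher temperature.

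All values are log2 ratios of a strain to the reference, centred on the median gene of their array. A ratio of 0 means the same share of polyA RNA as in the reference relative to that median gene, and a change common to all genes cannot be seen. The direction is not stated in the sources used here and was taken from TAF1, which had centred values of -3.52 and -3.46 in the null strain, against -0.06 and -0.63 in FHT-WT1. The difference was -3.14 ± 0.21 (SE), or 8.83-fold, with an adjusted p of 2.65e-05. TAF1 averaged -0.54 ± 0.33 in DT1, -0.49 ± 0.48 in TF1, -0.66 ± 0.56 in HT4 and -0.54 ± 0.15 in PB1, against -0.35 ± 0.40 in FHT-WT1 and 0.03 ± 0.13 on the homotypic pair (SD, n = 2 each), and none of these 4 strains passed the test against FHT-WT1. Between 6935 and 6971 features had a value on an array, and the number of arrays limits the precision. The arrays of FHT-WT1 correlated with each other at -0.0059 across all 5535 genes, and those of the homotypic pair at -0.227, while those of the other strains correlated at 0.509 to 0.662. Both controls thus stand apart in this respect. The homotypic arrays hold the reference in both dyes, so they carry no strain difference that could correlate, and a low value there is no sign of poor arrays. The labels do not settle how array 2 of the homotypic pair was turned.

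The 59 genes lay close to the array median on most arrays, and lowest on the Cy5 arrays of HT4 and PB1. Their median was -0.19 and -0.13 in the null strain, -0.05 and -0.02 in DT1, -0.15 and -0.02 in TF1, -0.35 and -0.05 in HT4, and -0.30 and -0.05 in PB1. On FHT-WT1 it was -0.10 and -0.11, and on the homotypic pair it was 0.05 and 0.13. In FHT-WT1, 46 and 43 of the 59 genes lay below the array median, so the group was already lower than the median gene in FHT-WT1. The homotypic arrays were the only ones where the median of the 59 genes was above 0.

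**Figure D1:**
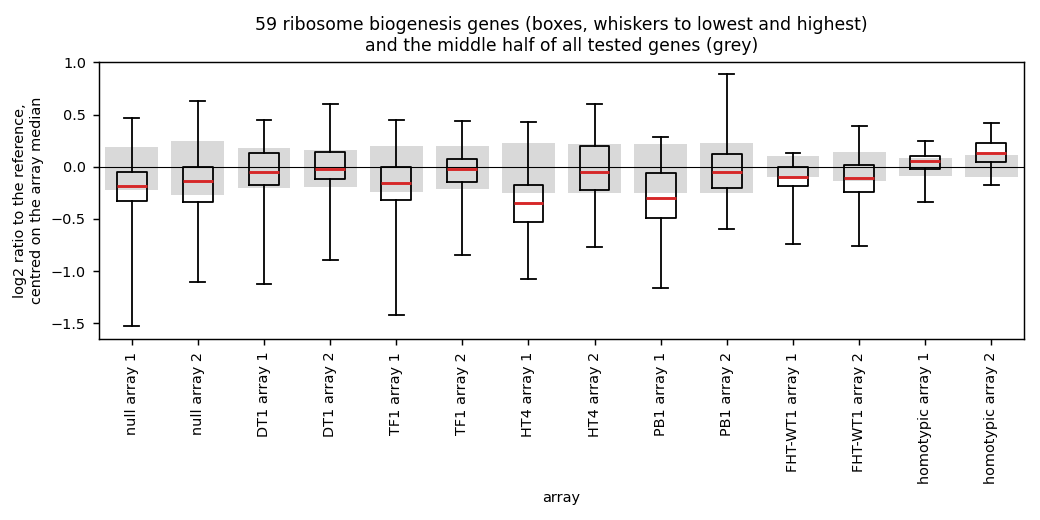
Centred log2 ratio to the reference (vertical axis) on each of the 14 arrays (horizontal axis), with boxes for the quartiles of the 59 ribosome biogenesis genes, a red line at their median, whiskers to the lowest and highest gene, and grey blocks for the middle of all 5535 genes from the lower to the upper quartile. The red line is lowest on HT4 array 1 at -0.35 and PB1 array 1 at -0.30, and above 0 on the homotypic pair alone.

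Against FHT-WT1, 2 of the 59 genes changed in the null strain, 3 in HT4 and 0 in DT1, TF1 and PB1. Of all genes, 6.02% changed in the null strain, 11.7% in HT4, 0.903% in DT1, 3.72% in TF1 and 7.35% in PB1. RRP12, a HEAT-repeat protein needed for the export of both subunits, was higher in the null strain and in HT4. UTP20, a large scaffold of the small subunit processome, was lower in the same strains, and RRP1, an assembly factor of the large subunit, was lower in HT4. A gene is called changed at a limma adjusted p under 0.05. All of these calls were lost with arrays scaled to a common spread, with quantile normalisation and without the dye term, where at most 1.77% of all genes were called in either strain. The quartiles of all genes were -0.10 and 0.10 on FHT-WT1 array 1 but -0.25 and 0.23 on HT4 array 1. A common spread therefore stretches FHT-WT1 against the strain, so lost calls can follow from the setting. The dye term was called for 35% of all genes, so leaving it out widens the residual spread.

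RRP12 had centred log2 ratios of 0.46 and 0.63 in the null strain, 0.45 and 0.60 in DT1, 0.44 and 0.44 in TF1, 0.43 and 0.42 in HT4, and 0.03 and 0.33 in PB1, against 0.0049 and -0.05 in FHT-WT1 and 0.17 and 0.05 on the homotypic pair. Every array of the null strain, DT1, TF1 and HT4 lay above both FHT-WT1 and both homotypic arrays, while array 1 of PB1 lay close to FHT-WT1. The difference from FHT-WT1 was 0.57 ± 0.12 in the null strain (1.48-fold, adjusted p 0.0288) and 0.45 ± 0.12 in HT4 (1.36-fold, adjusted p 0.0344). With the title number of the array as a random block, the HT4 difference was 0.40 with an adjusted p of 0.0553, so its call was lost, and the null strain kept its call. The difference was 0.55 ± 0.12 in DT1 and 0.46 ± 0.12 in TF1, which missed the threshold with adjusted p of 0.0541 and 0.0580, and 0.20 ± 0.12 in PB1. RRP12 was the highest of the 59 genes on 7 of the 14 arrays, which no other gene of the group reached.

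UTP20 had ratios of -0.89 and -0.44 in the null strain, -0.65 and -0.41 in DT1, -0.80 and -0.26 in TF1, -0.92 and -0.50 in HT4, and -0.67 and -0.24 in PB1, against -0.34 and -0.09 in FHT-WT1 and -0.14 and 0.24 on the homotypic pair. Array 1 was lower than array 2 in all 7 groups. Both arrays of the null strain, DT1 and HT4 lay below both of FHT-WT1, and TF1 and PB1 overlapped with it. UTP20 fell by 0.44 ± 0.11 in the null strain (1.36-fold, adjusted p 0.0376) and by 0.49 ± 0.11 in HT4 (1.41-fold, adjusted p 0.0150).

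RRP1 had ratios of -0.35 and -0.89 in the null strain, -0.25 and -0.29 in DT1, -0.33 and -0.52 in TF1, -0.79 and -0.77 in HT4, and -0.55 and -0.47 in PB1, against 0.05 and -0.20 in FHT-WT1 and -0.01 and 0.20 on the homotypic pair. All 10 arrays of the altered strains lay below both FHT-WT1 arrays, and the arrays of HT4 were the closest to each other. RRP1 fell by 0.70 ± 0.16 in HT4 (1.62-fold, adjusted p 0.0154). In the null strain the difference was -0.55 ± 0.16, with an adjusted p of 0.0607.

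**Figure D2:**
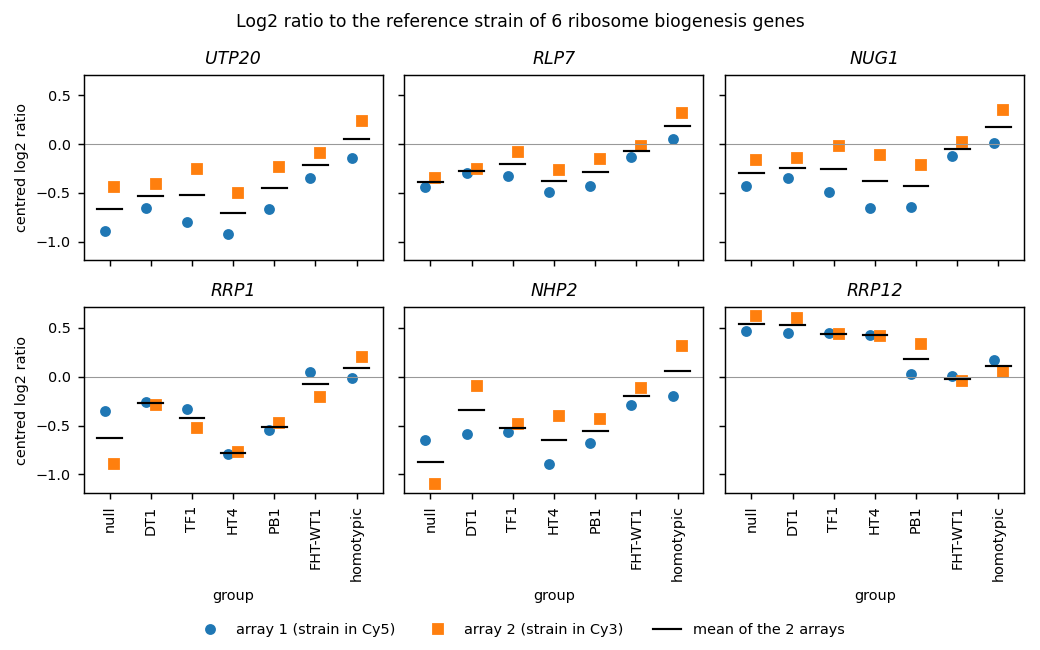
Centred log2 ratio to the reference (vertical axis) of UTP20, RLP7, NUG1, RRP1, NHP2 and RRP12 in the 7 groups (horizontal axis), with circles for array 1 (strain in Cy5), squares for array 2 (strain in Cy3) and lines for their mean. RRP12 lies above 0.4 on both arrays of the null strain, DT1, TF1 and HT4, UTP20 is lower on array 1 than on array 2 in every group, and RRP1 is near -0.78 on both arrays of HT4.

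Against the share of all genes that changed, the 59 genes gave few calls. In the null strain 2 of 59 changed, or 3.39%, where 6.02% of all genes did. Of these 1 was higher and 1 lower, against 1.9% of all genes higher and 4.12% lower. In HT4 3 of 59 changed, or 5.08%, where 11.7% of all genes did. There 1 was higher and 2 were lower, against 4.9% of all genes higher and 6.81% lower. Limma called 0 of 59 in DT1, TF1 and PB1, where it called 0.903%, 3.72% and 7.35% of all genes. At an unadjusted p under 0.05 it gave 11 of 59 in the null strain, 9 in DT1, 3 in TF1, 14 in HT4 and 6 in PB1, where 24%, 17.4%, 20.2%, 28.6% and 25.4% of all genes passed. Counted in either direction, the members' shares were thus at or below those of all genes in every strain. At that unadjusted threshold 9, 1, 2, 10 and 4 members were lower, where 14.1%, 10.6%, 12.1%, 16.1% and 14.4% of all genes were. Higher were 2, 8, 1, 4 and 2, where 9.94%, 6.85%, 8.11%, 12.5% and 11% of all genes were. The DT1 members thus lay mostly on the higher side.

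Counting arrays that do not overlap gave shares near or below those of all genes on the lower side. Both arrays lay below both FHT-WT1 arrays for 14 of 59 genes in the null strain, 6 in DT1, 5 in TF1, 15 in HT4 and 13 in PB1, where 21.1%, 22.5%, 21.7%, 24.6% and 23.1% of all genes did. They lay above for 5, 19, 13, 6 and 5 genes, where 18.2%, 19.6%, 19.4%, 21.8% and 19.5% of all genes did. DT1 and TF1 thus had more genes above FHT-WT1 than below it, and the null strain, HT4 and PB1 had more below. The median difference of the 59 genes was -0.08 in the null strain, 0.08 in DT1, 0.01 in TF1, -0.10 in HT4 and -0.05 in PB1, where the median of all genes lay between -0.012 and -0.0076. Under scaling to a common spread the null, HT4 and PB1 medians changed sign, to 0.03, 0.02 and 0.03, and as deposited the DT1 median was -0.08 where the median of all genes moved to -0.17. Scaling stretches FHT-WT1, where most of the 59 genes lay below the array median. The sign changes under scaling can follow from this. Of the 5 medians only that of TF1, which lay near 0, kept its sign as deposited, with a common spread and with quantile normalisation. A sign as deposited is not relative to the median gene, and the DT1 median still lay above the median of all genes there. The 95% interval of the difference stayed within a 2-fold change for 58 of 59 genes in the null strain, TF1 and HT4 and for all 59 in DT1 and PB1.

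These calls rest on few arrays. With each of the 14 arrays left out in turn, RRP12 remained called in 9 fits for the null strain and 8 for HT4, UTP20 in 4 and 11, and RRP1 in HT4 in 11. RRP12 in the null strain lost its call without either array of FHT-WT1 or of TF1 or without array 2 of the null strain, with an adjusted p of up to 0.182. In HT4 it lost the call without any 1 array of FHT-WT1, TF1 or HT4, with an adjusted p of up to 0.183. UTP20 in the null strain kept its call only without 1 array of HT4 or PB1, and otherwise reached an adjusted p of up to 0.173. UTP20 and RRP1 in HT4 lost the call without array 1 of FHT-WT1 or either array of HT4, with adjusted p of up to 0.111 and 0.117. In all of these fits the differences kept their sign.

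**Figure D3:**
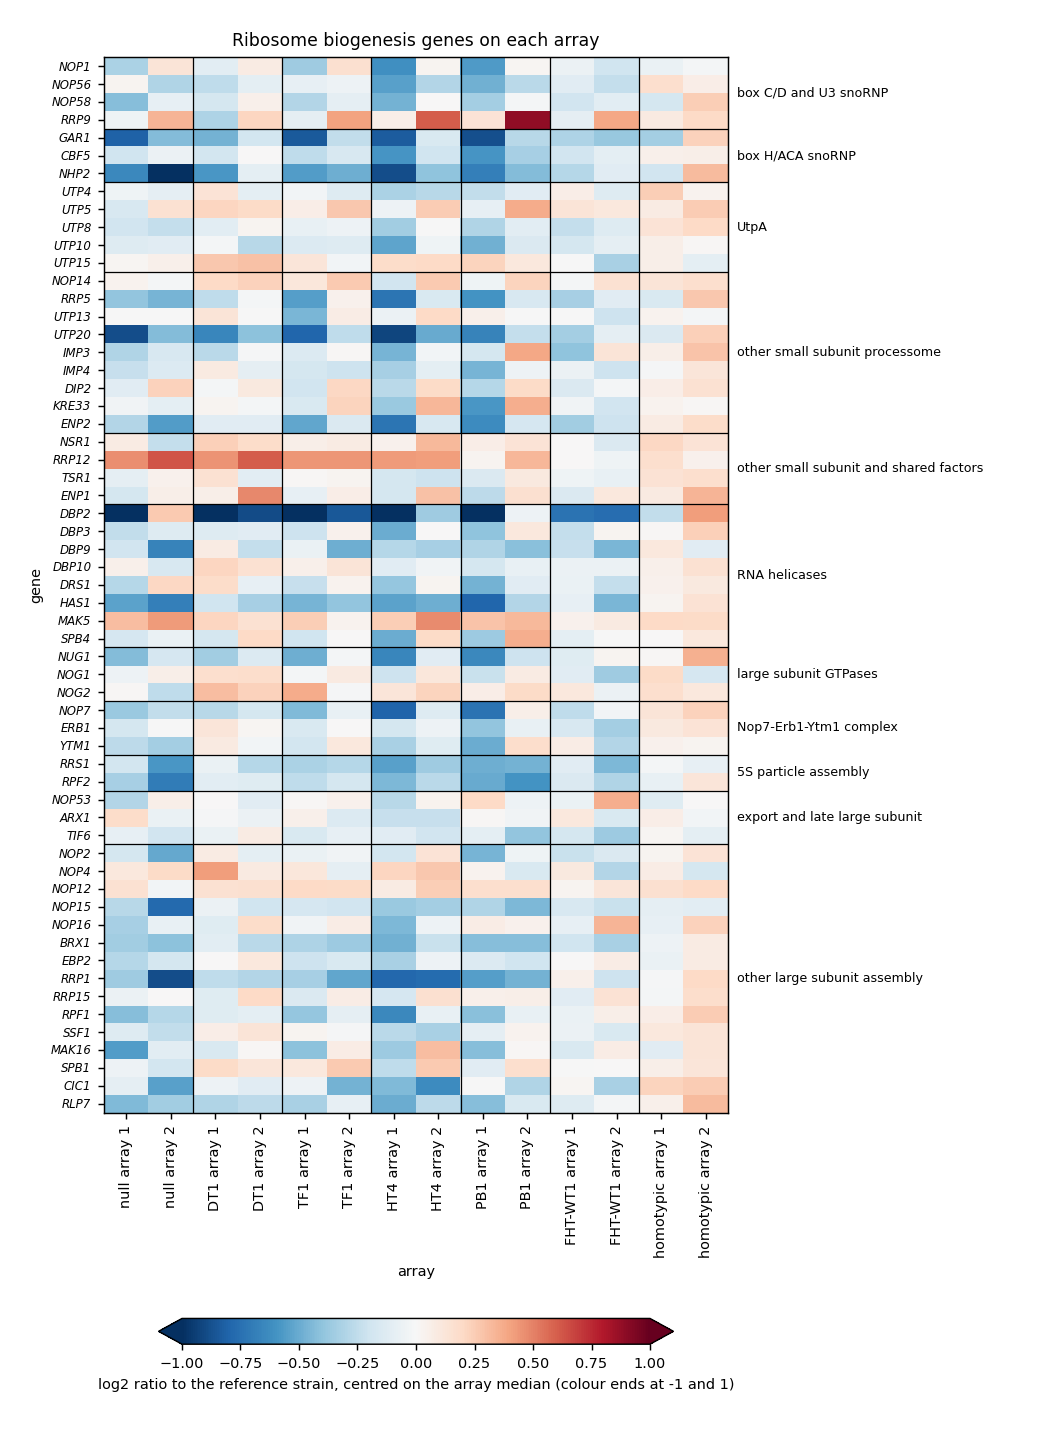
Centred log2 ratio to the reference (colour, ending at -1 and 1) of the 59 genes (rows, grouped by role) on the 14 arrays (columns). RRP12 is red on most strain arrays, and UTP20, NHP2 and GAR1 are blue on most. DBP2 is dark blue on the arrays of DT1, TF1 and FHT-WT1 and on array 1 of the null strain, HT4 and PB1.

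The 4 listed proteins of box C/D snoRNPs, which guide ribose methylation or the early cleavages, gave no call against FHT-WT1. They are NOP1, the methyltransferase, NOP56 and NOP58, its core partners, and RRP9, a protein of the U3 particle. NOP56 had ratios of 0.03 and -0.30 in the null strain, -0.25 and -0.10 in DT1, -0.09 and -0.05 in TF1, -0.54 and -0.29 in HT4, and -0.48 and -0.27 in PB1, against -0.11 and -0.24 in FHT-WT1 and 0.17 and 0.07 on the homotypic pair. HT4 and PB1 lay below both FHT-WT1 arrays and TF1 above both. RRP9 lay on the other side, with 0.14 and 0.88 in PB1 and 0.06 and 0.60 in HT4, against -0.09 and 0.39 in FHT-WT1 and 0.09 and 0.20 on the homotypic pair. Its arrays overlapped, and the difference of 0.36 ± 0.13 in PB1 had an adjusted p of 0.12.

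The 3 listed proteins of box H/ACA snoRNPs, the particles that make pseudouridine, were the role group with the lowest median difference in the null strain, TF1, HT4 and PB1, at -0.28, -0.20, -0.25 and -0.31, although none of the 3 was called against FHT-WT1. NHP2, a core RNA-binding protein, had ratios of -0.65 and -1.10 in the null strain, -0.58 and -0.10 in DT1, -0.56 and -0.49 in TF1, -0.89 and -0.40 in HT4, and -0.68 and -0.43 in PB1, against -0.28 and -0.11 in FHT-WT1 and -0.19 and 0.32 on the homotypic pair. Only DT1 overlapped with FHT-WT1. The difference in the null strain, -0.68 ± 0.20, was next in size to that of RRP1 in HT4 among all members and strains compared with FHT-WT1, and had an adjusted p of 0.0645. CBF5, the pseudouridine synthase, had -0.59 and -0.20 in HT4 and -0.59 and -0.33 in PB1, against -0.19 and -0.10 in FHT-WT1, with no overlap. GAR1, its binding partner, differed widely between dye orientations in the strains, with -0.81 and -0.44 in the null strain, -0.83 and -0.15 in HT4 and -0.88 and -0.28 in PB1, against -0.31 and -0.38 in FHT-WT1.

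UtpA is the first complex to bind the nascent transcript. The 5 of its genes on the list, UTP4, UTP5, UTP8, UTP10 and UTP15, gave no call against FHT-WT1. UTP15, one of its scaffold proteins, had 0.02 and 0.05 in the null strain, 0.27 and 0.30 in DT1, 0.12 and -0.03 in TF1, 0.19 and 0.20 in HT4, and 0.22 and 0.11 in PB1, against -0.01 and -0.32 in FHT-WT1 and 0.06 and -0.10 on the homotypic pair. All strains but TF1 lay above both FHT-WT1 arrays. Its difference from FHT-WT1 was 0.45 ± 0.11 in DT1 and 0.36 ± 0.11 in HT4, with adjusted p of 0.09 and 0.0636. UTP4 lay on the other side in HT4, with -0.32 and -0.28, against 0.06 and -0.13 in FHT-WT1. The listed genes of the complex therefore lay on both sides of 0 in every strain.

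Of the 9 other processome genes, only UTP20 was called. RRP5, an RNA-binding scaffold that serves both subunits, had -0.39 and -0.46 in the null strain and -0.73 and -0.16 in HT4, against -0.33 and -0.11 in FHT-WT1, and lay below both FHT-WT1 arrays in the null strain alone. The others were UTP13 and DIP2 of the UtpB complex, IMP3 and IMP4 of the U3-associated Mpp10 complex, NOP14, the RNA acetyltransferase KRE33, and ENP2. Leaving UTP20 aside, the differences of these genes from FHT-WT1 spanned both sides of 0 in each strain. Among small subunit and shared factors, NSR1, the yeast nucleolin-like protein, had 0.24 and 0.19 in DT1 and 0.04 and 0.32 in HT4, against 0.00 and -0.14 in FHT-WT1 and 0.20 and 0.14 on the homotypic pair. ENP1 and TSR1, which travel with the pre-small subunit, were not called.

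The 8 helicases DBP2, DBP3, DBP9, DBP10, DRS1, HAS1, MAK5 and SPB4 unwind pre-ribosomal RNA, and none was called against FHT-WT1. HAS1, which acts on both subunits, had -0.53 and -0.69 in the null strain, -0.20 and -0.33 in DT1, -0.46 and -0.39 in TF1, -0.54 and -0.49 in HT4, and -0.80 and -0.29 in PB1, against -0.08 and -0.46 in FHT-WT1 and 0.03 and 0.15 on the homotypic pair. The null strain and HT4 lay below both FHT-WT1 arrays, and the other strains overlapped with them. MAK5, a helicase of the large subunit, was above 0 on all 14 arrays, with 0.31 and 0.42 in the null strain and 0.25 and 0.47 in HT4, against 0.04 and 0.09 in FHT-WT1 and 0.20 and 0.19 on the homotypic pair.

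DBP2, a helicase that also takes part in mRNA decay and was singled out here after its values were seen, was the lowest gene on 9 of the 14 arrays. Its ratios were -1.53 and 0.26 in the null strain, -1.12 and -0.90 in DT1, -1.42 and -0.85 in TF1, -1.08 and -0.36 in HT4, and -1.16 and -0.05 in PB1, against -0.74 and -0.76 in FHT-WT1 and -0.24 and 0.42 on the homotypic pair. FHT-WT1 was thus low as well, and the arrays of the null strain lay on either side of 0.

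The GTPases NUG1, NOG1 and NOG2 act as switches in the assembly of the large subunit and differed among themselves. NUG1 had -0.43 and -0.16 in the null strain, -0.35 and -0.14 in DT1, -0.49 and -0.02 in TF1, -0.65 and -0.11 in HT4, and -0.65 and -0.21 in PB1, against -0.12 and 0.03 in FHT-WT1 and 0.0085 and 0.35 on the homotypic pair. The null strain, DT1 and PB1 lay below both FHT-WT1 arrays, and the difference in PB1, -0.38 ± 0.12, had the lowest adjusted p of that strain's members at 0.0715. NOG1 had 0.17 and 0.17 in DT1 and -0.02 and 0.09 in TF1, against -0.11 and -0.36 in FHT-WT1 and 0.19 and -0.17 on the homotypic pair, and no strain passed the test.

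Erb1, Nop7 and Ytm1 form 1 complex that an early large subunit precursor needs for processing, and none of their genes was called. NOP7 had -0.80 and -0.13 in HT4 and -0.74 and 0.06 in PB1, against -0.26 and -0.03 in FHT-WT1 and 0.13 and 0.23 on the homotypic pair, so that the low values came from the Cy5 arrays. ERB1 had 0.12 and 0.02 in DT1, against -0.16 and -0.34 in FHT-WT1, while in HT4 and PB1 its arrays overlapped with FHT-WT1. RPF2 and RRS1 work together in bringing the 5S particle to the large subunit. RPF2 had -0.33 and -0.70 in the null strain, -0.10 and -0.12 in DT1, -0.25 and -0.18 in TF1, -0.45 and -0.27 in HT4, and -0.50 and -0.60 in PB1, against -0.15 and -0.30 in FHT-WT1 and -0.08 and 0.12 on the homotypic pair. RRS1 had -0.19 and -0.58 in the null strain and -0.49 and -0.47 in PB1, against -0.11 and -0.45 in FHT-WT1.

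No late factor of the large subunit was called against FHT-WT1. TIF6, which keeps the subunits apart until the large one is mature, had -0.09 and -0.19 in the null strain and -0.07 and 0.08 in DT1, against -0.18 and -0.36 in FHT-WT1. NOP53, which brings the exosome to the precursor, had -0.29 and 0.06 in the null strain and -0.28 and 0.03 in HT4, against -0.06 and 0.36 in FHT-WT1. The export factor ARX1 had -0.23 and -0.23 in HT4, against 0.10 and -0.15 in FHT-WT1.

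Of the 15 other large subunit genes only RRP1 was called. RLP7, a protein resembling ribosomal protein L7 that binds a spacer of the precursor, had -0.44 and -0.34 in the null strain, -0.30 and -0.26 in DT1, -0.32 and -0.08 in TF1, -0.50 and -0.26 in HT4, and -0.43 and -0.15 in PB1, against -0.13 and -0.02 in FHT-WT1 and 0.05 and 0.32 on the homotypic pair. All strains but TF1 lay below both FHT-WT1 arrays, with an adjusted p of 0.0827 in HT4 and 0.0973 in the null strain. NOP4, an RNA-binding protein, lay on the other side, with 0.21 and 0.27 in HT4, against 0.10 and -0.29 in FHT-WT1. The remaining genes are NOP2 and SPB1, both RNA methyltransferases, and the assembly factors NOP12, NOP15, NOP16, BRX1, EBP2, RRP15, RPF1, SSF1, MAK16 and CIC1. In the null strain 14 of the 15 differences from FHT-WT1 were below 0, with a median of -0.16, where DT1 had 5 below 0 and a median of 0.06. SSF1 has a near-identical paralog, SSF2, whose transcript its product may also bind.

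Comparing the construct strains with the null strain asked whether a construct strain differed from the null strain in these genes. Limma called 0 of the 59 genes in DT1, TF1, HT4 and PB1 against the null strain, where it called 0.0723%, 0.0542%, 0.506% and 1.17% of all genes. At an unadjusted p under 0.05 there were 10, 3, 4 and 4 of the 59, where 10%, 5.96%, 11.5% and 16.7% of all genes passed. In DT1 the 10 were all higher, where 4.75% of all genes were. The DT1 median difference was 0.18, 8 of 59 differences were below 0, and for 30 genes both DT1 arrays lay above both null arrays, where 14.1% of all genes did. As deposited, without centring, the DT1 median turned to -0.04 with a median of all genes of -0.22, so it still lay above the latter. NOP15, a large subunit RNA-binding protein, had the lowest adjusted p in DT1, 0.360, with -0.06 and -0.20 in DT1, against -0.28 and -0.78 in the null strain.

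Among the constructs, 0 of the 59 genes were called in PB1 against the mean of DT1, TF1 and HT4, in HT4 against the mean of DT1 and TF1, or in DT1 against TF1, where limma called 1.08%, 0.0361% and 0% of all genes. At an unadjusted p under 0.05 there were 5, 9 and 2 of the 59, where 18.4%, 10.2% and 2.08% of all genes passed. HT4 had the widest shift, with a median of -0.14 and 50 of 59 differences below 0. That median was -0.26 within the Cy5 arrays and 0.0039 within the Cy3 arrays. SSF1 had the lowest adjusted p there, 0.258, with -0.27 and -0.32 in HT4, against 0.06 and 0.13 in DT1 and 0.03 and -0.01 in TF1.

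Between the 2 controls most of the genes lay lower in FHT-WT1, though no single gene passed the test. FHT-WT1 minus the homotypic pair had a median of -0.19, where the median of all genes was 0.01. Of the 59 differences 55 were below 0, and for 32 genes both FHT-WT1 arrays lay below both homotypic arrays, where 14.5% of all genes did. Limma called 0 of 59 members, as it did 0% of all genes, and gave 10 of 59 at an unadjusted p under 0.05, where 4.97% of all genes passed. All 10 were lower in FHT-WT1, where 3.04% of all genes were. DBP2 had the largest difference, -0.84 ± 0.31, with an adjusted p of 0.933. With the unsettled sign of homotypic array 2 reversed, the median was -0.07, 40 of 59 differences were below 0, and both FHT-WT1 arrays lay below both homotypic arrays for 17 genes, where 17.1% of all genes did. At an unadjusted p under 0.05 there were then 3. The 5 strains were also set against the homotypic pair, a comparison added after the data had been seen. It shares the strain arrays with the comparisons above.

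Against the homotypic pair, the median of the ribosome biogenesis genes was below 0 in every strain, and more of them were called. In the null strain 16 fell, where 10.9% of all genes did, and RRP12 alone rose, where 6.45% of all genes did. In DT1 3 fell and 0 rose, where 6.03% and 2.31% of all genes did, and in TF1 6 fell and 0 rose, where 9.86% and 5.65% did. In HT4 18 fell and 0 rose, where 14.1% and 10.6% of all genes did, and in PB1 14 fell and 0 rose, where 12.1% and 8.76% did. In either direction 17.4% of all genes were called in the null strain, 8.35% in DT1, 15.5% in TF1, 24.7% in HT4 and 20.9% in PB1. The share of members called was 28.8% in the null strain, 5.08% in DT1, 10.2% in TF1, 30.5% in HT4 and 23.7% in PB1, so it lay above the share of all genes in the null strain, HT4 and PB1 and below it in DT1 and TF1. Median differences were -0.25, -0.07, -0.18, -0.26 and -0.23 in the null strain, DT1, TF1, HT4 and PB1.

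**Figure D4:**
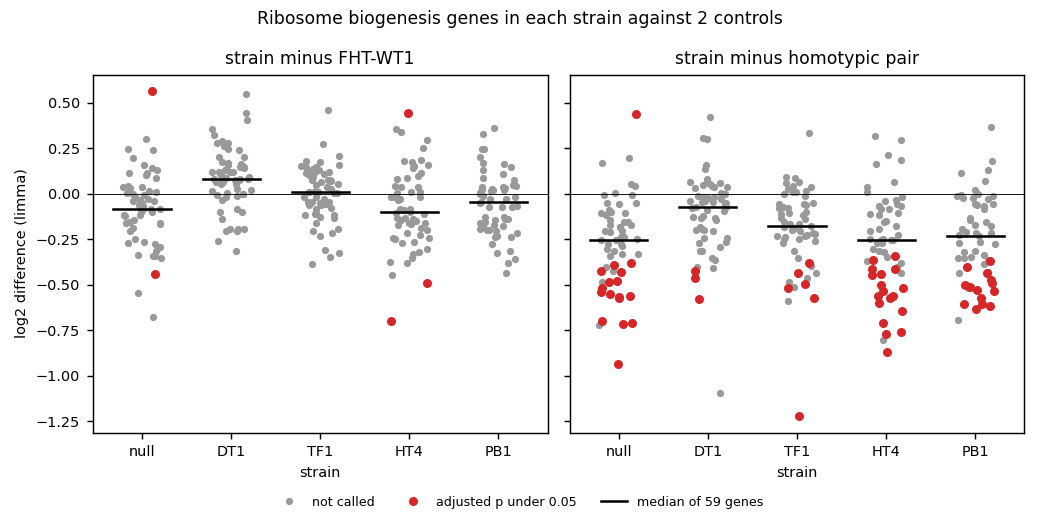
Log2 difference from limma (vertical axis) of the 59 genes in the null strain, DT1, TF1, HT4 and PB1 (horizontal axis), as strain minus FHT-WT1 on the left and strain minus homotypic pair on the right, with 1 point a gene, red at an adjusted p under 0.05 and black lines at the medians. On the left 2 points in the null strain and 3 in HT4 are red, and on the right 17, 3, 6, 18 and 14 are.

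UTP20, RLP7 and NUG1 fell in all 5 strains against the homotypic pair, or 5.08% of members, where 4.14% of all genes did. With the sign of homotypic array 2 reversed, RLP7 and NUG1 lost the call in every strain and UTP20 kept it in HT4 alone. UTP20 fell by 0.71 ± 0.11 in the null strain, 0.58 ± 0.11 in DT1, 0.57 ± 0.11 in TF1, 0.76 ± 0.11 in HT4 and 0.50 ± 0.11 in PB1. All 10 strain arrays lay below both homotypic arrays for each of UTP20, RLP7 and NUG1. The fall of NUG1 was between 0.42 in DT1 and 0.61 in PB1, and that of RLP7 between 0.38 in TF1 and 0.58 in the null strain. Leaving out 1 array at a time, NUG1 in DT1 lost its call in most fits. RRP1 fell in all strains but DT1, by 0.87 ± 0.16 in HT4 and 0.72 ± 0.16 in the null strain. In all, 24 of the 59 genes, or 40.7%, were called in at least 1 strain, where 35.4% of all genes were, and 35 in none.

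The called genes came from both subunits and from nearly every role. NHP2 of the H/ACA particles fell by 0.94 ± 0.20 in the null strain, 0.71 ± 0.20 in HT4 and 0.62 ± 0.20 in PB1. Its partner CBF5 fell in HT4 and PB1, and GAR1 in the null strain and PB1. HAS1, BRX1, RPF1, UTP8 and ENP2 fell in the null strain, HT4 and PB1, and CIC1, an assembly factor of the large subunit, in the null strain, TF1 and HT4. NOP56 fell in HT4 and PB1, RPF2 in the null strain and PB1, RRP5 in the null strain and HT4. NOP15 and DBP9 fell in the null strain alone among the calls, NOP7, SSF1, UTP4 and IMP3 in HT4, and DBP2 in TF1, by 1.22 ± 0.31. No late factor, ARX1, TIF6 or NOP53, was called in any strain. Leaving out 1 array at a time, UTP8 in HT4 and PB1, ENP2 in the null strain and PB1, and BRX1 in the null strain and HT4 lost the call in most fits. RPF1 and NHP2 in PB1 did so too, while CIC1 in HT4 kept its call in every fit. With the sign of homotypic array 2 reversed, CBF5 and RPF2 kept their call in PB1 alone, CIC1 in HT4 alone, and NOP15 and DBP9 in the null strain. The other genes named as called in this paragraph, HAS1, BRX1, RPF1, UTP8, ENP2, NHP2 and GAR1 among them, then lost every call.

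The size of this shift depends on array 2 of the homotypic pair. With its sign reversed, the null strain had 3 lower and 1 higher genes (9.02% of all genes called), DT1 and TF1 had 0 (3.16% and 7.57%), HT4 had 3 lower (15.2%) and PB1 4 lower (12.4%). The medians were then -0.13, 0.0079, -0.07, -0.16 and -0.16, and 9 members, or 15.3%, were called in at least 1 strain, where 21.9% of all genes were, among them UTP20 in HT4, CIC1 in HT4, and RRP1 in HT4 and in the null strain. Without array 1 of the pair the counts were 7, 0, 3, 6 and 6 in the null strain, DT1, TF1, HT4 and PB1, where 10.0%, 1.77%, 6.85%, 14.7% and 10.9% of all genes were called. Without array 2 they were 1, 0, 0, 7 and 1, where 1.45%, 0.849%, 2.96%, 8.83% and 4.48% of all genes were. The calls of all genes thus dropped as well. Leaving out array 2 of the null strain gave 3 there (4.19% of all genes), and array 1 or 2 of DT1 gave 1 or 0 in DT1 (1.08% or 0.668%). Array 1 or 2 of TF1 gave 0 or 1 in TF1 (3.4% or 3.02%), array 1 of HT4 gave 4 in HT4 (10.4%), and array 1 or 2 of PB1 gave 1 or 8 in PB1 (8.53% or 13.7%). In DT1, 5 were called without either array of the null strain (11.9%).

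Dye orientation moved with these results. In the term of the model for the strain in Cy5 against Cy3, 44 of the 59 genes were lower in Cy5, with a median of -0.10 and a median of all genes of 0.0029. It was called for 22 of 59 members, or 37.3%, and for 35% of all genes. The median difference of HT4 from FHT-WT1 was -0.28 within Cy5 arrays and 0.11 within Cy3 arrays, and that of PB1 was -0.16 and 0.07. The null strain gave -0.06 and -0.10, DT1 gave 0.09 and 0.10, and TF1 gave -0.05 and 0.05. Within both orientations UTP20 and RRP1 were lower and RRP12 was higher in the null strain and in HT4 than in FHT-WT1. The number in the array titles differs between arrays of 1 strain and is shared between strains, and the labels do not explain it. No title number occurs in both dye orientations, so the dye term cannot be told apart from a difference between the sets of numbers. The Cy3 arrays of FHT-WT1 and of the homotypic pair share a number that no other array carries. Every Cy3 difference between an altered strain and a control therefore also compares different title numbers. Whether dye or title number underlies these differences was not tested. Within arrays of the same title number the median difference of the members was 0.09 for DT1 minus FHT-WT1, 0.03 for DT1 minus TF1, 0.18 for TF1 minus HT4, 0.03 for HT4 minus PB1, -0.37 for PB1 minus the homotypic array, and -0.22 for FHT-WT1 minus the homotypic array.

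Of the rest of the pathway, 91 of 95 further ribosome biogenesis genes were measured, without NOP10, MDN1, FCF1 and DBP4. In the null strain 5 fell against FHT-WT1, namely ESF1, KRR1, LOC1, NOP6 and SAS10, or 5.49% where 4.12% of all genes fell. In HT4 7 fell, namely CMS1, KRR1, LOC1, NOP6, SAS10, SLX9 and UTP23, or 7.69% where 6.81% of all genes fell. In PB1 CMS1 and SAS10 fell, or 2.2% where 4.64% of all genes fell. None rose, and 0 were called in DT1 and TF1, where 0.705% and 2.62% of all genes fell. SAS10, a processome protein, fell by 0.45 ± 0.11 in the null strain, 0.58 ± 0.11 in HT4 and 0.47 ± 0.11 in PB1. Their medians, -0.14 in the null strain, 0.05 in DT1, -0.02 in TF1, -0.12 in HT4 and -0.07 in PB1, were close to those of the 59 genes.

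RNA polymerase I, which makes the precursor, was measured by 15 genes, of which 1 was called in the null strain, 1 in HT4, 2 in PB1 and none in DT1 and TF1. That is 6.67%, 6.67% and 13.3%, where 6.02%, 11.7% and 7.35% of all genes were called in the null strain, HT4 and PB1. In DT1 and TF1 0.903% and 3.72% of all genes were called. RPA190, its largest subunit, fell by 0.52 ± 0.12 in HT4 and 0.47 ± 0.12 in PB1, and RPA34 fell in the null strain by 0.58 ± 0.14. RRN11, a subunit of its core factor, rose by 0.53 ± 0.10 in PB1 against FHT-WT1 and rose there against the null strain too. Of 13 exosome genes, whose product trims the precursor, LRP1 fell in HT4 by 0.56 ± 0.15 and no other was called. That is 7.69% in HT4, where 6.81% of all genes fell. None of the 11 regulators of these genes was called against FHT-WT1, where 0.903% to 11.7% of all genes were, depending on the strain. Among them SCH9, a nutrient-sensing kinase, had 0.41 ± 0.11 in TF1 with an adjusted p of 0.0586.

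The 135 cytosolic ribosomal protein genes, whose products these factors load onto the precursor, had lower medians. Against FHT-WT1 36 fell in the null strain, 0 in DT1, 24 in TF1, 83 in HT4 and 9 in PB1, and none rose. These are 26.7%, 0%, 17.8%, 61.5% and 6.67%, where 4.12%, 0.705%, 2.62%, 6.81% and 4.64% of all genes fell. Their median difference was -0.44 in the null strain, -0.29 in DT1, -0.43 in TF1, -0.57 in HT4 and -0.25 in PB1, where the 59 biogenesis genes had -0.08, 0.08, 0.01, -0.10 and -0.05. Whether the lists differ was not tested, and products of near-identical paralogs among the ribosomal protein genes can bind each other's transcripts. Calls in these other lists were not counted under the other processing settings, some of which ended the calls of the 59 genes against FHT-WT1.

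**Figure D5:**
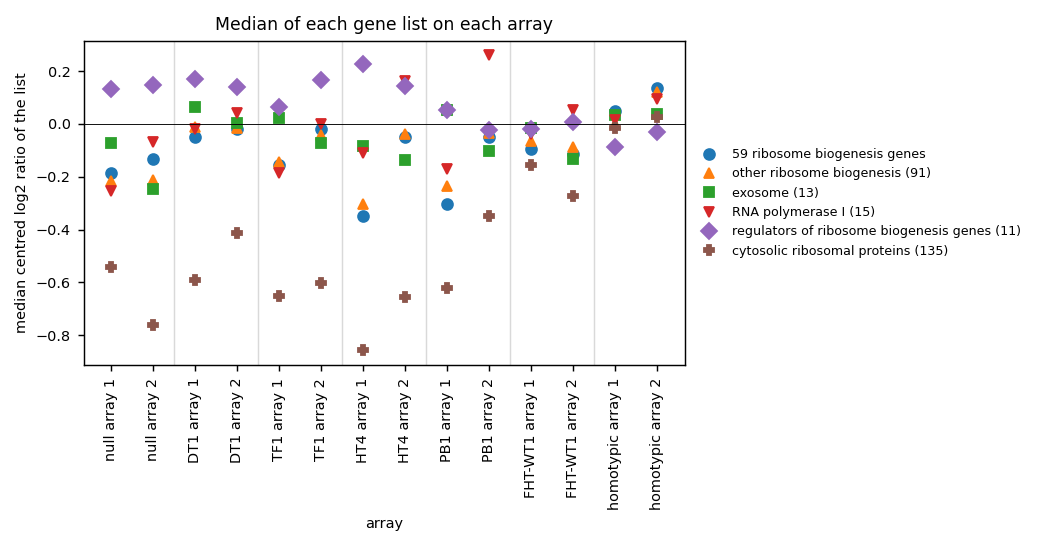
Median centred log2 ratio to the reference (vertical axis) of the 59 biogenesis genes and 5 other lists (symbols, with the number of genes measured) on the 14 arrays (horizontal axis). Ribosomal protein genes (crosses) are the lowest list on all arrays of the altered strains, while the 59 genes (circles) and the other biogenesis genes (triangles) stay close together and nearer to 0.

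By the order of genes in the reference annotation, RPF1 and GAR1 are neighbours on their chromosome and the only such pair among the 59. With the wider list, SSF1 has RRP3 next to it, NOP56 has PWP1, NOG2 has ESF2 and RRP15 has NOC4. No member overlaps another protein-coding gene in that annotation. The PCR products are double-stranded and do not tell the strands of a gene apart.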

How the data were processed

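PolyA RNA was hybridised in 2 colours to 14 arrays of PCR products with 7056 features. The authors deposited a log2 ratio for each feature. Per the series text, the authors normalised them by the mode in R and corrected them with B. subtilis spikes added per OD600. Of the features 5579 carry a gene name, giving 5548 genes, of which 5543 matched the R64 annotation, used for names and neighbours only. Features of 1 gene were averaged, 13 genes lacking a value on some array were left out, and each array was centred on its median.

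A linear model with a coefficient for each of 7 groups and 1 for dye orientation was fitted (R 4.3.3, limma 3.58.1 with eBayes), two-sided, with Benjamini-Hochberg adjustment over 5535 genes and a threshold of 0.05 (residual 6 and prior 5.98 degrees of freedom). The comparisons of the strains with the homotypic pair were added after the data had been seen. Homotypic arrays took the orientation of the strain array with the same title number. With 2 arrays against 2, an exact permutation test cannot go below 0.333, and none was used. On simulated data for the null strain against FHT-WT1 (5535 genes), 48.5% of changes of 0.5, 98.5% of 1 and 100% of 2 on the log2 scale were recovered, with 9 false calls. The simulated noise was independent between arrays and took its size and dye term from the fitted model. It held no correlation by title number and no uncertain sign, so these rates may not hold for the real arrays.

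The named genes were TAF1, for each comparison up to 6 called members that fell and 4 that rose, and, from each of 11 role groups, the 2 members with the largest mean moderated statistic plus the one furthest from its group's median. Members and lists were chosen with earlier results of these data known. The alternatives were no centring, a common median absolute deviation, quantile normalisation, no dye term, only the groups compared, reversed signs of array 2 of the homotypic pair or of FHT-WT1, the title number, which arrays of different strains share, as a random block, genes with a value on at least 12 arrays, the homotypic pair as the control, and leaving out each array. Reversing the sign of an array left its dye orientation in the model unchanged. A planned count of promoter motifs was not run because no promoter sequence was used here.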

Additional observations from a re-analysis of the deposited data

Results flagged for a closer look

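For 6 genes both arrays of 1 strain lay above both FHT-WT1 arrays while both arrays of another strain lay below them. These are 10.2% of the 59 genes, and 6.45% of all genes showed such a pattern. No difference between the strains was tested for these genes as a pattern, and none of the values passed the test against FHT-WT1. NOP56 differed from FHT-WT1 by 0.10 in TF1, -0.25 in HT4 and -0.20 in PB1. RPF2 differed by -0.29 in the null strain, 0.11 in DT1 and -0.32 in PB1. SSF1 differed by 0.20 in DT1, 0.11 in TF1 and -0.19 in HT4. For DBP10, a helicase of the large subunit, the values were 0.24 in DT1, 0.15 in TF1 and -0.066 in PB1. SPB1 had -0.12 in the null strain, 0.16 in DT1 and 0.18 in TF1. TSR1 had 0.074 in TF1 and -0.13 in HT4.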

How the results depend on the processing

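No paired analysis was possible because no 2 groups share more than 1 of the numbers in the array titles. That number was fitted as a random block (correlation 0.271), which ended the call of RRP12 in HT4 and no other call against FHT-WT1. The number of the 59 genes called against FHT-WT1 was 2 in the null strain and 3 in HT4. Under the alternatives the null strain and HT4 gave 0 and 1 as deposited (0.687% and 6.16% of all genes called), 0 and 0 with a common median absolute deviation, with quantile normalisation and without the dye term (at most 1.77% of all genes), 0 and 1 with only the groups compared (2.01% and 6.02%), and 1 and 1 with homotypic array 2 reversed (3.04% and 8.13%). With FHT-WT1 array 2 reversed the null strain, DT1, TF1, HT4 and PB1 gave 8, 1, 6, 11 and 8 (16.1%, 4.32%, 13.3%, 22.8% and 22.9% of all genes). TF1 gave 2 with only the groups compared (13.4%), DT1 gave 1 with the title number as a random block (1.99%), and FHT-WT1 against the homotypic pair gave 1 with quantile normalisation (0.506%) and 1 with only the groups compared (1.21%). With the homotypic pair as the control the 5 strains gave 17, 3, 6, 18 and 14, and with its array 2 reversed as well the null strain gave 4 and PB1 4.

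Against the homotypic pair as deposited, the null strain, DT1, TF1, HT4 and PB1 gave 8, 14, 3, 40 and 6 called genes (7.68%, 20.8%, 8.27%, 34.8% and 8.4% of all genes), where the median of all genes moved by -0.38 in DT1 and -0.42 in HT4. Without the dye term they gave 3, 0, 0, 5 and 1 (4.44%, 0.849%, 3.07%, 9.12% and 5.46%), and with homotypic array 2 reversed 4, 0, 0, 3 and 4. DT1 gave 7 with a common median absolute deviation (11.7%), and with quantile normalisation the null strain gave 11 and DT1 5 (9.05% and 10.1%). With only the groups compared the null strain gave 0, DT1 9 and TF1 15 (0.0361%, 21.8% and 31.8%), and with FHT-WT1 array 2 reversed the null strain gave 9, TF1 3 and PB1 9 (12.1%, 10.9% and 15.5%). The causes were not tested.

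Leaving out 1 array at a time gave 0 to 5 genes for the null strain against FHT-WT1, 0 to 1 for DT1, TF1 and PB1, 0 to 4 for HT4, 0 to 2 for DT1 against the null strain, and 0 for the other comparisons. Without array 1 of the null strain 5 were called there (12.8% of all genes), and 2 in DT1 against it (2.64%). Against the homotypic pair it gave 1 to 19 in the null strain, 0 to 5 in DT1, 0 to 8 in TF1, 4 to 21 in HT4 and 1 to 20 in PB1. Among 9 alternatives with FHT-WT1 as the control, RRP12 remained called in 4 for the null strain and 2 for HT4, UTP20 in 3 and 3, and RRP1 in HT4 in 6, and none changed sign. Over TAF1 and the 23 named members, 72 values became called, 57 lost the call, and 207 uncalled values of 3000 changed sign. Signal over background was not analysed here, so dim features were not set apart.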
